A study of Homo sapiens with 4 samples.

Results

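Aminoacyl-tRNA synthetases were followed in the human melanoma cell line A375 for their response to octanoate, a saturated medium-chain fatty acid. The 36 synthetase genes were taken by symbol from a table of 56832 genes, and the rule used the symbols, not measured values. By the naming rule, 20 symbols were cytosolic and the 16 symbols ending in 2 were mitochondrial. GARS and KARS, whose products serve both sites, were counted with the cytosolic genes. Wild-type A375 cells grown in DMEM with 10% serum received 1 mM octanoate or its solvent isopropanol (vehicle) for 48 h, and RNA of 2 libraries per group was sequenced. The labels do not say whether the libraries came from separate cultures. The p-values therefore rest only on the spread between these libraries, which may be technical. That spread was largely pooled over genes, so a standard error (SE) given below is not the replicate spread of its gene alone.

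Each synthetase joins an amino acid to the transfer RNAs that carry it to the ribosome. Cells use separate sets for the cytosol, where nuclear-encoded messages are translated, and for the mitochondrion, which translates its own few messages; both sets are encoded in the nucleus. Many cytosolic synthetase genes are known targets of ATF4, the transcription factor of the integrated stress response and the response to amino acid shortage. Several cytosolic enzymes sit together in the multisynthetase complex, and all synthetases belong to catalytic class I or class II by the fold of their active site.

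Recovered read totals were between 67785956 and 78005035 per library. All 36 synthetase genes had a mean normalised count (reads divided by a size factor of their library) of at least 10, the minimum for testing. Vehicle 1 lay above vehicle 2 for all 20 cytosolic genes and 13 of the 16 mitochondrial genes, with median log2 differences of 0.08 and 0.08. The share and median were 63.2% and 0.04 for all 20250 tested genes. They were 69.5% and 0.05 for the 15310 tested genes within the synthetases' range of mean counts. That gap between replicates is close in size to many of the differences below, and its part in them was not tested. The melanoma markers SOX10 and MITF had mean normalised counts of 39577 and 3431 in vehicle and 36592 and 2463 in octanoate. MITF was called lower (limma adjusted p 2.33e-06), as was S100B, from 3988 to 1832 (limma adjusted p 9.15e-12). PMEL was called higher, from 65.8 to 96.8 (limma adjusted p 0.0289). The pigment gene TYR, at 3.90 in vehicle and 2.05 in octanoate, was near 0. MLANA, DCT and TYRP1 had vehicle means of 42.0, 27.3 and 9.27 and were not called. Summed normalised counts per library over the marker lists were 45156 and 49411 in vehicle and 38697 and 43768 in octanoate for 9 melanoma genes, 1314 and 1316 against 1106 and 1121 for 5 fibroblast genes, and 5683 and 6714 against 4793 and 6447 for 4 keratinocyte genes. For 5 leukocyte genes they were 600 and 670 against 725 and 777, and for 4 endothelial genes 576 and 580 against 787 and 792. No marker was under 3 reads in every library. Single genes carried most of the melanoma, keratinocyte and leukocyte sums. In that order they were SOX10, KRT10, with means of 5152 in vehicle and 5369 in octanoate, and LYZ. LYZ rose from 604 to 724 (limma adjusted p 0.0273). KRT14 fell from 1026 to 242 (limma adjusted p 2.40e-13), and PECAM1 rose from 121 to 235 (limma adjusted p 1.05e-05). PTPRC, the pan-leukocyte gene, had means of 9.76 and 4.76 and was not tested. The part of these genes in the results was not tested.

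Octanoate was followed by higher levels of part of the cytosolic set and by few changes in the mitochondrial set. Of the 20 cytosolic genes, 9 rose (SARS, GARS, CARS, MARS, YARS, LARS, AARS, EPRS and IARS), 3 fell (HARS, RARS and QARS) and 8 did not pass the test. Of the 16 mitochondrial genes, 0 rose, 1 fell (VARS2) and 15 did not pass. Calls were made at an adjusted p under 0.05 with limma on log2(normalised count + 1), with Benjamini-Hochberg adjustment over all 20250 tested genes. Among all tested genes 29.9% were called, 16.2% higher and 13.7% lower. Among the 15310 tested genes within the synthetases' range of mean counts 19.5% were called higher and 16.5% lower. That range ran from 42.5 to 45379, while the lowest mean of a cytosolic gene was 6225. The shares called among genes at the cytosolic level were not computed. The median log2 difference was 0.11 for the cytosolic and -0.01 for the mitochondrial genes, against 0.01 for all tested genes. All changes were small: the log2 differences ran from -0.21 to 0.40 in the cytosolic set and from -0.21 to 0.07 in the mitochondrial set. These are descriptions of the 2 sets. The members of a set are not replicates, and the difference between the sets was not tested.

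**Figure D1:**
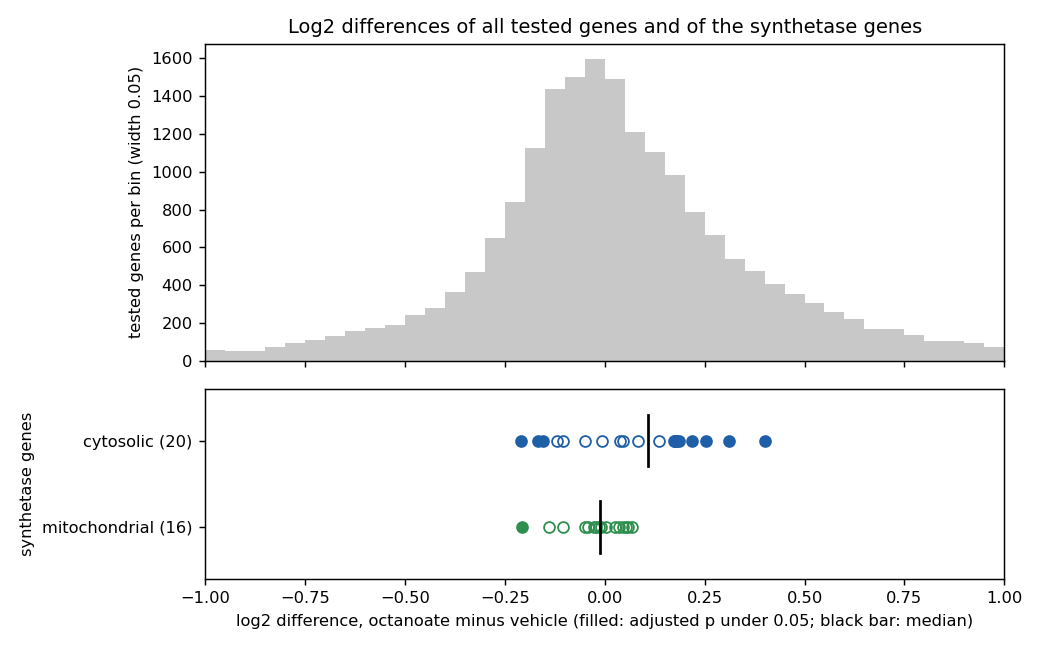
Histogram of the log2 differences (octanoate minus vehicle) of all tested genes in bins of 0.05, above the same quantity for each synthetase gene; filled points have a limma adjusted p under 0.05 and black bars are set medians (0.11 cytosolic, -0.01 mitochondrial). The 9 higher calls lie at the right end of the cytosolic row, well inside the histogram of all genes, of which 1015 differ by more than 1 in size and lie outside the axis.

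The counts depended on single libraries and on the variance model. The cytosolic genes called higher numbered 8 without vehicle 1, 3 without vehicle 2, 3 without octanoate 1 and 4 without octanoate 2, and those called lower 0, 3, 1 and 1 in the same order. With single libraries left out, the log2 differences ran from 0.34 to 0.46 for SARS, 0.26 to 0.36 for GARS and 0.20 to 0.31 for CARS. With a variance prior that ignores the level of a gene, no synthetase was called in either set. In the authors' deposited table, made with DESeq2, 9 cytosolic genes were higher and 3 lower at an adjusted p under 0.05, and of the mitochondrial genes 0 were higher and 1 lower, against 6.89% higher and 6.01% lower of all 33533 genes listed there.

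SARS, the seryl-tRNA synthetase on chromosome 1 (109213918 to 109238169, forward strand), had the largest rise. Its normalised count was 13729 and 12658 in vehicle and 17301 and 17490 in octanoate, so both octanoate libraries lay above both vehicle libraries and the replicates differed by far less than the groups. Its log2 difference was 0.40 ± 0.06 (SE, limma adjusted p 8.70e-06), a mean 31.9% higher. GARS, the glycyl-tRNA synthetase on chromosome 7 (30594681 to 30634033, forward strand), makes both the cytosolic and the mitochondrial enzyme. It read 25509 and 23863 in vehicle and 30446 and 30816 in octanoate, again with no overlap, and its log2 difference was 0.31 ± 0.06 (SE, limma adjusted p 0.000201). CARS, for cysteine, on chromosome 11 (3000922 to 3057613, reverse strand), read 7174 and 6641 in vehicle and 8110 and 8358 in octanoate, and its log2 difference was 0.25 ± 0.06 (SE, limma adjusted p 0.00178). These 3 genes had the smallest moderated p of the synthetases.

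MARS, for methionine, read 27411 and 25891 in vehicle and 31145 and 30805 in octanoate, and its log2 difference was 0.22 ± 0.06 (SE, limma adjusted p 0.00554). Its gene on chromosome 12 (57475445 to 57517569, forward strand) shares 355 exon bases with DDIT3, a stress-response gene on the opposite strand that itself rose from 636 ± 74.8 to 911 ± 54.2 (SD, n = 2 each; limma adjusted p 9.21e-05). Whether counting used the strand is not given in the sources used here, so the share of DDIT3 reads in the MARS count cannot be told apart. YARS, for tyrosine, read 21914 and 20480 in vehicle and 24194 and 23981 in octanoate, and its log2 difference was 0.19 ± 0.06 (SE, limma adjusted p 0.0166). LARS, the leucyl enzyme that is also known as a leucine sensor for mTORC1, read 23426 and 22715 in vehicle and 25939 and 26327 in octanoate, and its log2 difference was 0.18 ± 0.06 (SE, limma adjusted p 0.0175). EPRS, which joins the glutamyl and prolyl enzymes in a single protein, read 42962 and 42289 in vehicle and 47112 and 49152 in octanoate, and its log2 difference was 0.17 ± 0.06 (SE, limma adjusted p 0.0262). In all 4 genes the octanoate libraries were above the vehicle libraries. The calls of YARS and LARS were lost in 3 of the 4 fits that each left out a library, that of EPRS in all of them, and that of MARS without vehicle 2 and without octanoate 1. For these 4 genes the highest adjusted p among the 4 fits was 0.0591 (MARS), 0.147 (YARS), 0.136 (LARS) and 0.256 (EPRS).

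AARS, for alanine, and IARS, for isoleucine, completed the genes that rose. Their log2 differences were 0.18 (SE 0.06, limma adjusted p 0.0273) and 0.17 (SE 0.06, limma adjusted p 0.0271), and their groups did not overlap. Both were called in 1 of the 4 fits with a library left out, the fit without vehicle 1, and their adjusted p reached 0.207 and 0.272 in the others.

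**Figure D2:**
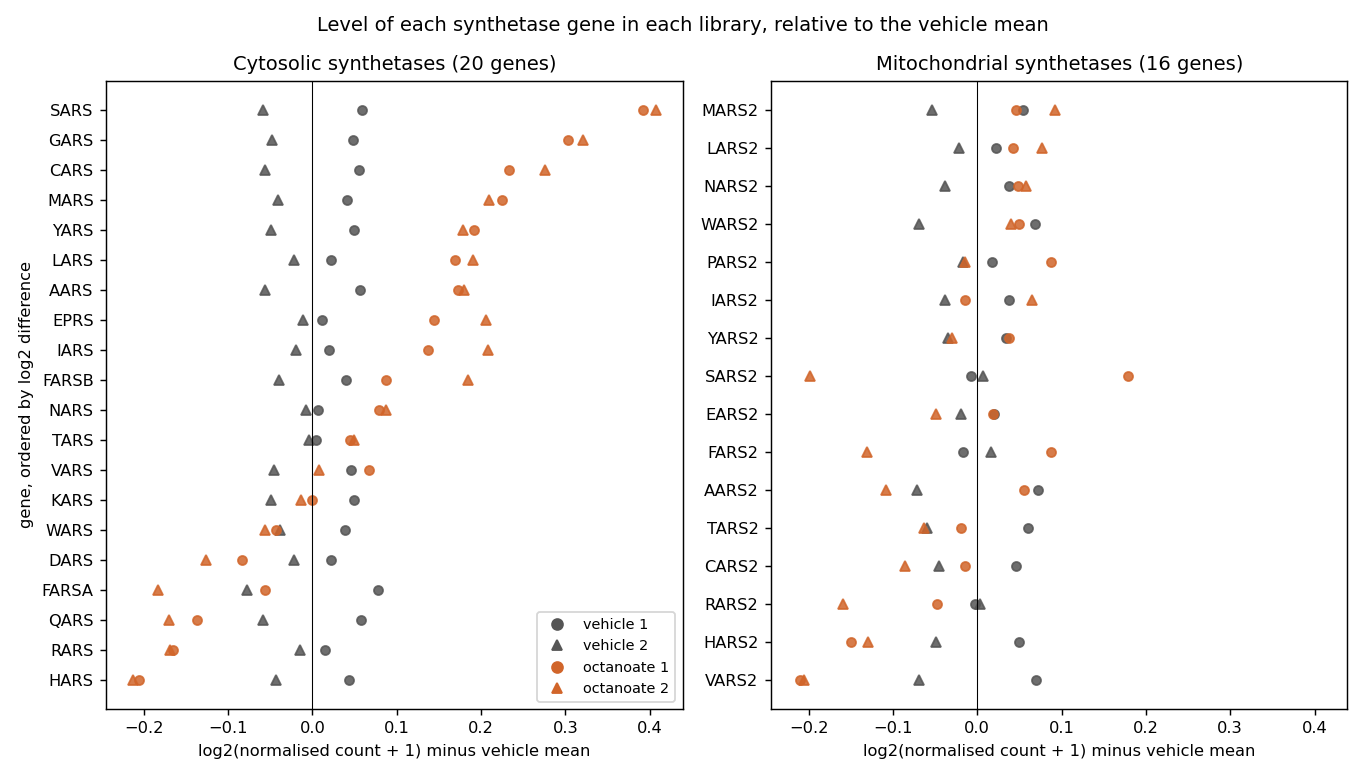
Level of each synthetase gene in each of the 4 libraries as log2(normalised count + 1) minus the mean of the vehicle libraries, cytosolic genes on the left and mitochondrial genes on the right, ordered by log2 difference; circles are replicate 1 and triangles replicate 2. Octanoate points separate from vehicle points at both ends of the cytosolic panel, and vehicle 1 sits above vehicle 2 in all 20 cytosolic rows.

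Upstream sequence was read for a known element of amino acid response genes that ATF4 binds. The element was chosen with earlier results of these data known. Promoter windows of 300 bases (250 before and 50 after a RefSeq gene start, GRCh38.p14) were found for 30 of the 36 genes, 21 with 1 window and 9 with 2. They were searched on both strands for the letters TGATGNAA, the core of the C/EBP-ATF response element; no other motif was searched. A match was present for 7 of 16 cytosolic and 1 of 14 mitochondrial genes, against 4.46% of the 27305 genes in the table. By window it was 8 of 39, against 3.62% of 35116. Among the cytosolic genes with a window, 5 of the 7 that rose held a match (GARS, CARS, MARS, IARS and AARS), 0 of the 3 that fell, and 2 of the 6 that did not pass (NARS and TARS, where the match lay after the gene start). SARS and EPRS rose and had none of these letters in their windows. Among the genes that rose with a match, the calls of MARS, IARS and AARS depended on single libraries. The 30 bases around the match are shown for the 5 genes that rose, in the direction of the gene, with the match in capitals; it lies on the strand opposite to the gene in each.
GARS (chr7:30594834-30594863, forward strand): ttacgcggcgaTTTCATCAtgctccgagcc
CARS (chr11:3057418-3057447, reverse strand): ggcgcgacttccggggcggcggTTGCATCA
MARS (chr12:57488042-57488071, forward strand): agaagcgggaggccggttccggTTGCATCA
IARS (chr9:92293698-92293727, reverse strand): cccgcattttcagcgcgTTGCATCAcctcc
AARS (chr16:70289675-70289704, reverse strand): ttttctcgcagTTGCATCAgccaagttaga
CARS, MARS, IARS and AARS carry the same letters, TTGCATCA, while GARS carries TTTCATCA. Positions are counted from the RefSeq start of each window, which differs from the outer end of the gene in GENCODE 29 given here. The stretches of GARS, CARS, MARS and IARS therefore lie inside the GENCODE gene spans. GARS and CARS each have a second window, with no match. The match began 2, 4, 13 and 33 bases before the RefSeq start in CARS, MARS, IARS and GARS, and 187 bases before it in AARS. In CARS and MARS it crosses the start. YARS2 was the only mitochondrial gene with a match, TGATGGAA, which began 197 bases before the start on the same strand as the gene, and YARS2 had a log2 difference of 0.0036. A match is a description of letters and does not show that a factor bound there. A part of ATF4 in the changes was not tested.

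HARS, the histidyl-tRNA synthetase on chromosome 5 (140673904 to 140691862, reverse strand), had the largest fall of the cytosolic set. It read 13642 and 12849 in vehicle and 11484 and 11419 in octanoate, with both octanoate libraries below both vehicle libraries, and its log2 difference was -0.21 ± 0.06 (SE, limma adjusted p 0.00655). RARS, for arginine, read 26179 and 25643 in vehicle and 23108 and 23051 in octanoate, and its log2 difference was -0.17 ± 0.06 (SE, limma adjusted p 0.0263). QARS, for glutamine, read 20249 and 18682 in vehicle and 17686 and 17290 in octanoate, and its log2 difference was -0.15 ± 0.06 (SE, limma adjusted p 0.0485). Octanoate libraries were the lower ones in all 3 genes. HARS kept its call in 3 of the 4 fits with a library left out, all but the fit without vehicle 1 (adjusted p 0.0839). RARS was called in 0 of these fits, with adjusted p up to 0.150, and QARS only without vehicle 2, with adjusted p up to 0.337 elsewhere.

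The other 8 cytosolic genes did not pass the test. KARS, the lysyl-tRNA synthetase, which like GARS serves both the cytosol and the mitochondrion, read 28572 and 26703 in vehicle and 27604 and 27360 in octanoate. Its octanoate values lay between its vehicle values, and the log2 difference was -0.01 with a 95% interval from -0.13 to 0.11 (limma adjusted p 0.943). For GARS the same interval ran from 0.19 to 0.43. The phenylalanyl enzyme is built of FARSA and FARSB, whose log2 differences had opposite signs, -0.12 (limma adjusted p 0.162) and 0.14 (limma adjusted p 0.0895). Aspartyl DARS had -0.11 (limma adjusted p 0.173) and asparaginyl NARS 0.08 (limma adjusted p 0.287). Tryptophanyl WARS, known as an interferon-gamma target, had -0.05 (limma adjusted p 0.560). Threonyl TARS had 0.05 (limma adjusted p 0.584) and valyl VARS 0.04 (limma adjusted p 0.677). FARSA, KARS and VARS were the cytosolic genes whose groups overlapped; octanoate lay above vehicle for 12 of the 20 and below for 5, where 32.6% and 30.5% of all tested genes did so.

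Genes that rose and genes that fell were both found within the multisynthetase complex. Of its 8 genes, 4 rose (EPRS, IARS, LARS and MARS) and 2 fell (QARS and RARS), and of the 12 cytosolic genes outside it 5 rose and 1 fell. The medians of the log2 differences were 0.08 in the complex and 0.11 outside it. Among cytosolic class I enzymes 5 of 9 rose and 2 fell, with a median of 0.17. Among class II enzymes 3 of 10 rose and 1 fell, with a median of 0.06. Of all tested genes 16.2% were called higher and 13.7% lower. EPRS holds both classes and is in neither count, and differences between these groups were not tested.

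VARS2, the mitochondrial valyl-tRNA synthetase on chromosome 6 (30908242 to 30926459, forward strand), was the member of the mitochondrial set that passed the test. It read 3134 and 2846 in vehicle and 2583 and 2590 in octanoate, below both vehicle libraries, and its log2 difference was -0.21 ± 0.06 (SE, limma adjusted p 0.0173). The call was kept without vehicle 2 only; the adjusted p reached 0.230 when another library was left out. In GENCODE 29, 22.0% of its exon bases also belong to GTF2H4 on the same strand, so its count is uncertain. HARS2, for histidine, read 5215 and 4869 in vehicle and 4543 and 4606 in octanoate, without overlap, and its log2 difference was -0.14 ± 0.06 (SE, limma adjusted p 0.0811). RARS2, for arginine, read 3397 and 3412 in vehicle and 3294 and 3049 in octanoate, and its log2 difference was -0.10 ± 0.06 (SE, limma adjusted p 0.226). These 3 genes were the mitochondrial ones with octanoate below vehicle in every library.

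LARS2, for leucine, read 4090 and 3966 in vehicle and 4147 and 4248 in octanoate, and its log2 difference was 0.06 ± 0.06 (SE, limma adjusted p 0.493). MARS2, for methionine, read 1589 and 1475 in vehicle and 1580 and 1632 in octanoate, and its log2 difference was 0.07 ± 0.07 (SE, limma adjusted p 0.502). CARS2, for cysteine, read 6227 and 5845 in vehicle and 5972 and 5683 in octanoate, and its log2 difference was -0.05 ± 0.06 (SE, limma adjusted p 0.572). The differences of these genes were no larger than the spread between their replicates or close to it. NARS2 (0.05, limma adjusted p 0.582) was, with LARS2, the gene of the set with octanoate above vehicle in every library. The remaining differences were 0.04 for WARS2 (limma adjusted p 0.690), 0.04 for PARS2 (0.795), 0.03 for IARS2 (0.787) and 0.0036 for YARS2 (0.974). They were -0.02 for EARS2 (0.878), -0.02 for FARS2 (0.881), -0.03 for AARS2 (0.818) and -0.04 for TARS2 (0.663). For 11 of the 16 mitochondrial genes the groups overlapped, 2 had octanoate above and 3 below, where 32.6% of all tested genes lay above and 30.5% below.

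The median SE was 0.06 in each set. The highest cytosolic SE was 0.063, while FARS2 had 0.085, PARS2 0.086 and SARS2 0.26. SARS2, the mitochondrial seryl enzyme, had normalised counts of 42.2 and 42.6 in vehicle and 48.1 and 36.8 in octanoate, and its log2 difference of -0.01 had a 95% interval from -0.54 to 0.52 (limma adjusted p 0.983). A change the size of that of SARS was not detectable for it. In GENCODE 29 a further coding gene, AC011455.2, covers 46.2% of its exon bases on the same strand, and MRPS12 a further 10.8% on the opposite strand. For the other 15 mitochondrial genes the upper end of the 95% interval was at most 0.21, below the difference of 0.31 measured for GARS.

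Genes for the same amino acid were set side by side in 17 cytosolic and mitochondrial pairs, with EPRS paired with EARS2 and PARS2, and FARSA and FARSB each with FARS2. The cytosolic gene had the more positive log2 difference in 13 pairs. A higher call of the cytosolic gene alone was seen in 9 pairs, and in 0 pairs did the mitochondrial gene rise. EPRS stands in 2 of these 9 pairs, and GARS and KARS, without a mitochondrial partner, are in none. Of all tested genes 16.2% were called higher. The ratio of the cytosolic to the mitochondrial count was higher in both octanoate libraries than in both vehicle libraries for 11 pairs. It was lower for 2 (HARS with HARS2 and WARS with WARS2) and overlapping for 4. Of single tested genes 32.6% lay above and 30.5% below in this way. The share among ratios of other gene pairs was not computed. Single pairs were not tested, because with 2 libraries per group the smallest two-sided p of an exact permutation is 0.333.

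The widest gap was that of SARS and SARS2 (0.41), whose log2 differences were 0.40 and -0.01. The low count of SARS2 makes this gap uncertain (SE of SARS2 0.26). CARS and CARS2 came next, with a gap of 0.30. Their log2 count ratios were 0.20 and 0.18 in vehicle and 0.44 and 0.56 in octanoate. For valine the gap of 0.25 came from the mitochondrial gene: VARS read 18121 and 17001 in vehicle and 18395 and 17644 in octanoate, while VARS2 fell. The histidine genes HARS and HARS2 had the same sign. They lie head to head on chromosome 5 and share 437 exon bases on opposite strands in GENCODE 29, which makes both counts uncertain. The arginine genes RARS and RARS2 also both had negative differences, with overlapping ratios.

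**Figure D3:**
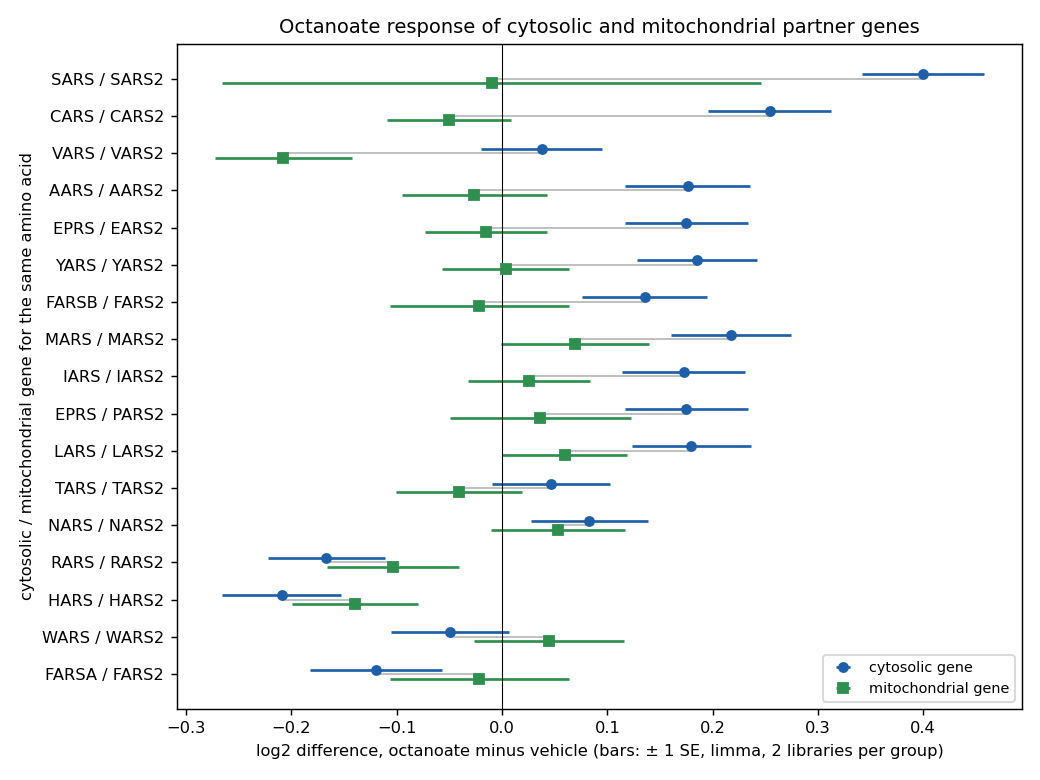
Log2 difference (octanoate minus vehicle) of the cytosolic gene (circles) and the mitochondrial gene (squares) for the same amino acid in 17 pairs, with bars of 1 SE from limma (2 libraries per group). Most circles lie to the right of their squares, and SARS2, with the lowest count, has the widest bar (SE 0.26).

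Summed over the set, the cytosolic genes took 0.605% and 0.601% of all reads in vehicle and 0.632% and 0.648% in octanoate. The mitochondrial genes took 0.101% and 0.0999% in vehicle and 0.0980% and 0.100% in octanoate. The ratio of the summed normalised counts was 5.98 and 6.02 in vehicle and 6.45 and 6.47 in octanoate. IARS2 made up between 37.0% and 39.1% of the mitochondrial sum, and without it the ratio was 9.50 and 9.56 in vehicle and 10.3 and 10.6 in octanoate. The 2 groups of libraries did not overlap in any of these ratios.

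Levels between genes were compared per kilobase of merged exons in GENCODE 29. The median vehicle level was 3963 normalised counts per kilobase over the cytosolic genes and 647 over the mitochondrial genes. FARSA, at 10650, had the highest level per kilobase of the cytosolic set in vehicle and CARS, at 688, the lowest. Merged exons pool all annotated transcripts of a gene and covered 2435 bases for FARSA and 10037 for CARS. The order of the genes can therefore depend on the annotation. IARS2, at 6607, stood above the other mitochondrial genes, of which YARS2 was next at 1907 and SARS2 lowest at 13.1. The level of SARS2 is uncertain because its exons overlap those of other genes. In octanoate SARS went from 3439 to 4535 and GARS from 5946 to 7377 normalised counts per kilobase.

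Exons of 20 of the 36 genes overlap those of another gene in GENCODE 29, 17 on the opposite strand and 6 on the same strand. Of the genes that rose, SARS, AARS, EPRS and IARS had no such overlap. YARS shares 396 exon bases with S100PBP, CARS 205 with CARS-AS1, GARS 99 with GARS-DT and LARS 42 with AC091887.1, all on the opposite strand. Besides DDIT3, MARS shares 519 exon bases with ARHGAP9 on the opposite strand and holds the microRNA gene MIR6758 on its own strand. Of the genes that fell, RARS had none.

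Few other genes of the pathway passed the test, though several had differences as large as those of the called synthetases. Of 17 further aminoacylation genes (scaffolds, editing factors and tRNA-dependent routes), 16 were tested, 1 was called higher and 0 lower, where 16.2% of all tested genes were called higher and 13.7% lower; the same shares apply to the 2 lists below. SEPSECS, which makes selenocysteinyl-tRNA, rose from 1950 to 2304 mean normalised counts, and its log2 difference was 0.24 ± 0.07 (SE, limma adjusted p 0.00708). QRSL1, a subunit of the mitochondrial glutaminyl-tRNA amidotransferase, had 0.17 (limma adjusted p 0.0543). TARSL2, a threonyl synthetase paralogue, had -0.22 (limma adjusted p 0.0565), and PSTK, the kinase that acts before SEPSECS, had -0.25 (limma adjusted p 0.0902). Of the scaffold genes of the multisynthetase complex, AIMP1 had 0.07 (limma adjusted p 0.384), AIMP2 -0.02 (limma adjusted p 0.819) and EEF1E1 -0.17 (limma adjusted p 0.127). Of 12 mitochondrial translation factors 0 rose and 1, C12orf65, fell (log2 difference -0.39, limma adjusted p 2.79e-05), with a median of 0.03 over the list. Of 9 cytosolic elongation and termination factors 8 were tested, 0 rose and 1, ETF1, fell (-0.18, limma adjusted p 0.0206), with a median of 0.00077; EEF1G is listed at 0 in every library.

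**Figure D4:**
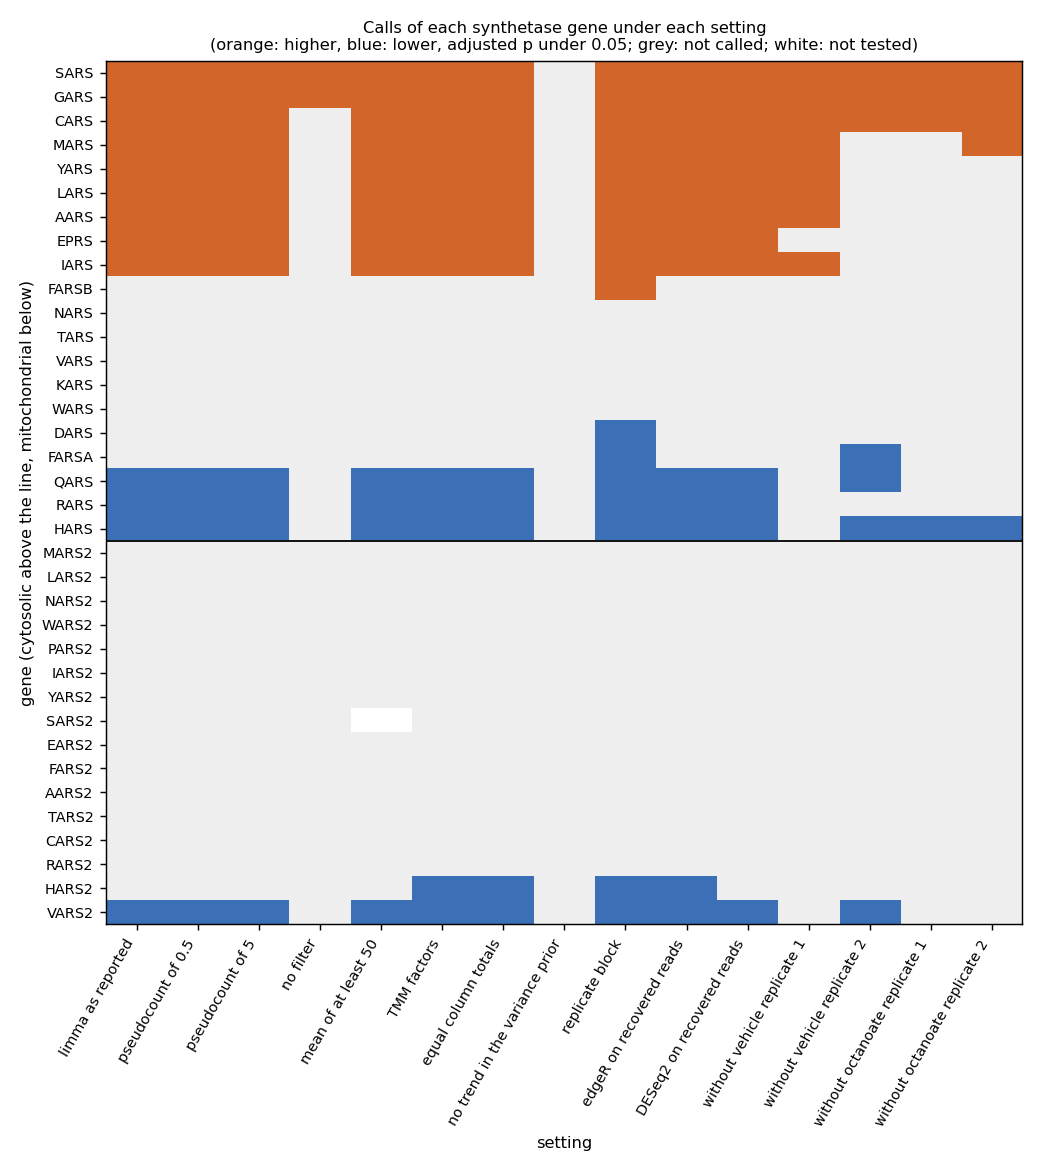
Calls of each synthetase gene (rows; cytosolic above the line, mitochondrial below) under limma as reported and 14 other settings (columns); orange is higher and blue lower at an adjusted p under 0.05, grey is not called and white not tested. SARS and GARS are orange in every column but the one without a trend in the variance prior, and no mitochondrial gene is orange in any column.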

How the data were processed

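The deposited main table holds, per gene and library, a signal that by the table's name is a count normalised by DESeq2. The submitters' processing notes name bcl2fastq 2.17, Trim Galore, STAR 2.4, Picard, HTSeq 0.9.1, DESeq2 and the build hg38, without roles; annotation and strand setting are not given in the sources used here. Division by each library's smallest positive value gave whole reads throughout (100% of values, tolerance 1e-06). The authors' deposited comparison gives a mean signal, log2 fold change with its error, a test score, a p-value and an adjusted p-value.

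The values are not raw counts, so limma 3.58.1 (R 4.3.3) was fitted to log2(normalised count + 1) with a trend in the variance prior, over 20250 genes with a mean of at least 10; treatment was the only term. Fold changes are on that scale, which understates those of low genes. edgeR 4.0.16 and DESeq2 1.42.0 on the recovered reads were alternatives. On simulated counts for these 20250 genes with 200 changed, limma found 73.1% of those given a log2 change of 0.5. It made 14 false calls among 178. The synthetases had log2 differences of at most 0.40 in size, and recovery at such sizes was not tested. In the data 29.9% of the tested genes were called, and the share of false calls with that many changed genes was not tested.

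The members, the lists and the motif were chosen with earlier results of these data known. Every synthetase is named. Values per library are given for the 8 cytosolic and 6 mitochondrial genes with the smallest p, for GARS and KARS, for partners where a pair is compared and for genes called against the majority of their set. Of the further aminoacylation genes, the 4 with the smallest p carry values; the scaffold genes, C12orf65 and ETF1 were added after their values were seen. Sequences come from RefSeq promoters, GRCh38.p14. They are printed for up to 6 matched genes in order of p where the match touches upstream bases; proteins were not used here.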

Additional observations from a re-analysis of the deposited data

How the results depend on the processing

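Over all 14 alternative settings the 13 called synthetases kept their direction. Pseudocounts of 0.5 and 5, a minimum mean of 50 and DESeq2 left each count of called synthetases unchanged, as did leaving GARS and KARS out for the genes called lower (8 rather than 9 were higher). With no filter 2595 genes were called in all, with 2 cytosolic genes higher, 0 cytosolic genes lower and 0 mitochondrial genes lower. Without a trend in the variance prior 1625 genes were called (67.4% of them higher, against 54.1%), and 0 cytosolic genes were higher, 0 lower and 0 mitochondrial genes lower; the adjusted p of SARS was then 0.0649. In both of these fits the prior degrees of freedom fell, from 21.2 to 3.45 and 1.57. With octanoate 1 or octanoate 2 left out they were infinite, so the variance of each gene came from the trend alone. HARS2 joined VARS2, giving 2 mitochondrial genes lower, with TMM factors, equal column totals and edgeR.

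Leaving out 1 library at a time, each fit with a group of 1 assuming that it varies like the other, gave 4295 to 4757 called genes, 3 to 8 cytosolic genes higher, 0 to 3 lower, 0 mitochondrial genes higher and 0 to 1 lower. The cytosolic median lay between 0.08 and 0.13 and the mitochondrial median between -0.056 and 0.040. Signs of genes near 0 turned in these fits: KARS ranged from -0.056 to 0.041, VARS from -0.0084 to 0.084, AARS2 from -0.108 to 0.056, EARS2 from -0.049 to 0.019, FARS2 from -0.130 to 0.087, IARS2 from -0.014 to 0.065, PARS2 from -0.014 to 0.087, SARS2 from -0.198 to 0.178, TARS2 from -0.101 to 0.019, WARS2 from -0.024 to 0.113 and YARS2 from -0.031 to 0.038. YARS2 was -0.0037 with equal column totals and -0.0031 with DESeq2, and SARS2 0.00998 with edgeR. The cause was not tested.

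The replicate numbers pair the libraries by number only; the deviations of same-numbered libraries from their group means correlated at 0.126 over 20250 genes. Adding the replicate block gave 8376 called genes, with 10 cytosolic genes higher, 5 lower and 2 mitochondrial genes lower. SARS2 had the lowest count and the largest SE of the synthetases: its SE was 0.26, against a median of 0.06 in each set. The cause of its low count was not tested.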
